A study of Mus musculus with 5 samples.

Results

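The transcription factors Tcf7, Lef1, Bcl11b, Gata3, Runx1, Runx3, Zbtb7b, Satb1 and Tox guide cells into and through the T lineage. These 9 genes were taken by name from the 32589 genes of the gene table and were read in single-cell RNA sequencing of lung tumors from mice with small cell lung cancer. Rb1 and Trp53 were floxed in every animal (Rb1 fl/fl x Trp53 fl/fl) and were deleted in the lung by inhaled adenoviral Cre, whose promoter was not given in the sources used here. Tumors grew for about 6 months to a lesion visible by µCT, and treatment was then given every 3 days. The 5 libraries, 1 for each group, were vehicle (PBS), anti-PD-1 antibody at 10 mg/kg, the oral ERBB2 inhibitor mubritinib at 10 mg/kg (ERBB2i), both agents (combination), and both agents in an animal labelled as in response (combination in response). Mice were of both sexes on a C57BL/6 background, and the age of each animal was not given. With 1 library per group, treatment, animal, dissection and library preparation cannot be told apart, so no difference between libraries was tested.

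T-lineage cells were those with at least 1 UMI (a counted RNA molecule) of Cd3e, Cd3d or Cd3g and none of the neuroendocrine genes Chga and Chgb. They numbered 13020 of 71190 retained cells. Combination in response gave 7238 of them, anti-PD-1 4265, ERBB2i 1229, combination 286 and vehicle 2. All 9 T-cell markers of a marker list were detected in each of these sets. The list includes Cd3e, Cd3d and Cd3g, which chose the cells. Only Trbc1, Trbc2, Trac, Cd2, Cd5 and Cd6 were therefore seen apart from the rule. Cells were divided by detection of the co-receptors Cd4 and Cd8a (neither, both, Cd4 only, Cd8a only) and by detection of Rag2 or Dntt, which act in antigen receptor gene rearrangement. A level is the sum of a gene's UMIs in a class per 1000000 UMIs of that class (CPM), with an exact Poisson 95% interval in parentheses. A difference is a log2 ratio of 2 such levels with an exact conditional 95% interval, and "2-fold" means a log2 ratio of at least 1 in size among genes with at least 50 UMIs over both classes. All intervals cover counting error only.

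Total counts per library ran from 21624506 to 88497833 UMIs. Median depth in T-lineage cells lay between 1051 and 1584 UMIs in the 4 libraries with more than 2 such cells. The ERBB2i and combination libraries used barcodes of 24 bases and had 782 of them in common, whereas the other libraries used 27 bases and pairs of them had 69 to 79 in common. The libraries differed first in which T-lineage cells they held. Rag2 or Dntt was detected in 5255 of the 7238 cells in combination in response and 2856 of the 4265 in anti-PD-1, but in 8 of 1229 in ERBB2i and 3 of 286 in combination. Both co-receptors were detected in 3087 cells of combination in response, 1105 of anti-PD-1, 3 of ERBB2i and 0 of combination. Of 5 thymic epithelium genes, 4 were detected in T-lineage cells of anti-PD-1 and 4 in those of combination in response, against 1 in ERBB2i and 1 in combination. Their summed level did not follow that order, at 12.7 CPM in anti-PD-1 and 17.0 in combination in response against 22.6 in ERBB2i and 22.0 in combination, and the first pair held 10985123 and 12384044 T-lineage UMIs against 1506174 and 363755. The combination in response library held 1 cell with a Chga or Chgb UMI and no Cd3 UMI, against 4438 to 19199 in the other libraries, although its label names lung tumor tissue. Rag1 was listed at 0 in every barcode of every library and could not be used.

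T-cell development starts in the thymus, where Notch signals induce Tcf7 and Gata3, and Bcl11b then closes off other fates. Developing cells rearrange their receptor genes and pass through a stage with both co-receptors, after which Zbtb7b (ThPOK) drives the CD4 fate and Runx3 the CD8 fate. Lef1 is the close relative of Tcf7, Runx1 is the Runx factor of early thymocytes, Satb1 organises chromatin in thymocytes, and Tox is needed for CD4 lineage development and is high in exhausted T cells of tumors.

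The promoter of Runx3 is shown because Runx3 and Zbtb7b were the factors 2-fold apart between Cd8a only and Cd4 only cells of combination in response, and because Runx proteins bind the letters TGTGGTT. RefSeq (GRCm38.p6, the mm10 assembly named in the submitters' processing notes) gave promoters for 8 of the 9 genes, 19 in all. In the 250 bases before each start, searched on both strands, TGTGGTT was found in 4.40% of 32851 promoters and in 1 of these 19, that of the upstream start of Runx3. That window is chr4:135120395-135120644 on the plus strand, directly upstream of the gene (chromosome 4, 135120645 to 135177990). It holds 2 matches, both read on the other strand and printed in capitals:
Runx3 upstream promoter: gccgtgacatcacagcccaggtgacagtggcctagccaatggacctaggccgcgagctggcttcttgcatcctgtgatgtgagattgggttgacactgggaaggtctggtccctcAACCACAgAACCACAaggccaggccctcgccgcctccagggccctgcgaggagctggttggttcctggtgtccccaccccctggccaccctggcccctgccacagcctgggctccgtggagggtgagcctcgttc
The TCF/LEF letters CTTTGAT or CTTTGTT were found in 8.06% of promoters and in 2 of the 19, both overlapping windows of Satb1, and the GATA letters AGATAA in 9.99% and in none of the 19. A match is only a run of letters, and binding was not measured.

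Across all T-lineage cells, 7 of the 9 factors differed at least 2-fold between the highest and the lowest of the 4 libraries, as did 71.7% of 11835 genes with at least 50 UMIs over these libraries. A count of 7 in 9 was therefore near the share over all genes. Tcf7 stood at 2175 CPM (2149 to 2201) in combination in response and 1507 (1484 to 1530) in anti-PD-1. It was lower in ERBB2i, at 588 (550 to 628), and lowest in combination, at 445 (379 to 519). Satb1 followed the same order, with 2807 CPM (2777 to 2836), 918 (900 to 936), 389 (358 to 422) and 302 (249 to 364). Both were highest in the libraries rich in cells with Rag2 or Dntt, and neighbouring libraries did not overlap in their intervals except ERBB2i and combination for Satb1. The order of libraries was the same in cells without Rag2 or Dntt. Tcf7 stood there at 1707, 1005, 588 and 431 CPM, and Satb1 at 3109, 962, 385 and 280.

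Bcl11b, the commitment factor, was at 1073 CPM (1055 to 1092) in combination in response and 459 (446 to 472) in anti-PD-1. ERBB2i had 365 (335 to 396) and combination 305 (251 to 367), which overlapped. Runx1 ranged from 57.7 CPM (35.7 to 88.2) in combination to 250 (241 to 258) in combination in response. Runx3 ran the other way and was highest in the libraries poor in Rag2 or Dntt cells. ERBB2i had 206 CPM (184 to 230), combination 157 (119 to 203), combination in response 32.4 (29.3 to 35.7) and anti-PD-1 21.1 (18.5 to 24.0). In cells without Rag2 or Dntt the order was the same, at 206, 160, 65.6 and 39.6 CPM. NK markers over all T-lineage cells summed to 287, 399, 22.9 and 9.01 CPM in these libraries.

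Lef1 was at 674 CPM (659 to 688) in combination in response, 512 (476 to 549) in ERBB2i, 313 (259 to 376) in combination and 294 (284 to 304) in anti-PD-1, and the last pair was not separated. Tox was at 469 CPM (457 to 481) in combination in response, 206 (162 to 258) in combination, 203 (180 to 227) in ERBB2i and 107 (101 to 113) in anti-PD-1. Gata3 lay between 55.9 CPM (51.6 to 60.5) in anti-PD-1 and 89.5 (84.3 to 94.9) in combination in response, and Zbtb7b between 25.3 CPM (22.4 to 28.5) in anti-PD-1 and 46.7 (27.2 to 74.8) in combination. These were the pair that spread less than 2-fold.

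**Figure D1:**
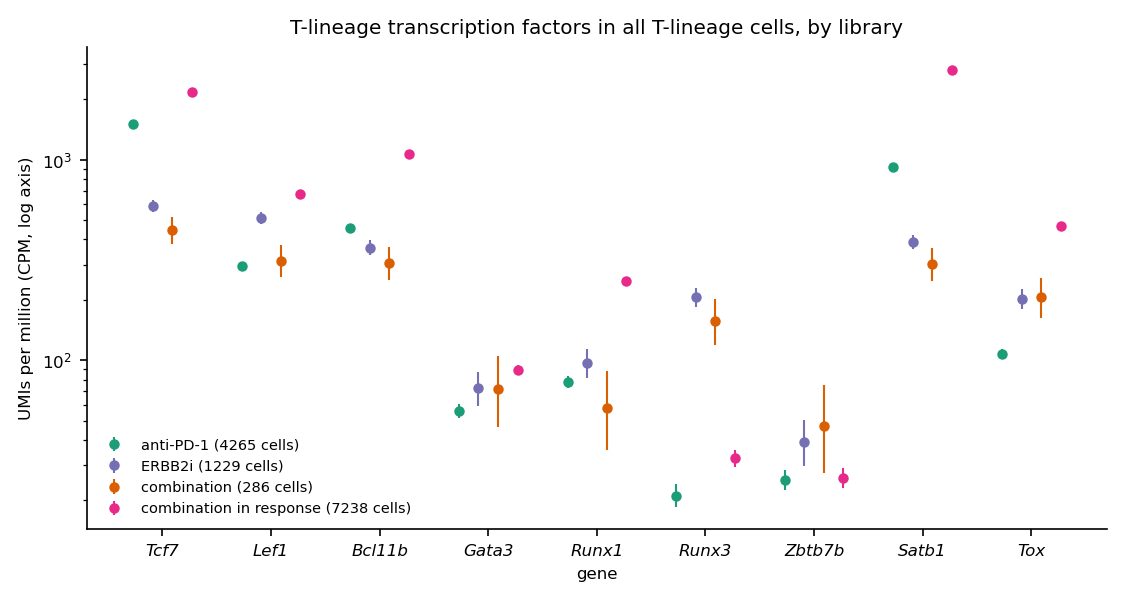
Level of each factor in all T-lineage cells of 4 libraries, in CPM on a log axis, with exact Poisson 95% intervals. Vehicle, with 2 cells, is left out. Runx3 is highest in ERBB2i and combination, whereas Tcf7, Lef1, Bcl11b, Gata3, Runx1, Satb1 and Tox are highest in combination in response.

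In vehicle, 2 cells passed the filters and allow no level, with 2 UMIs each of Tcf7 and Lef1, 1 each of Bcl11b, Runx1 and Tox, and 0 of the others. Without the mitochondrial and outlier filters, 68 vehicle cells met the rule, none with Rag2 or Dntt. Their Tcf7 level was 443 CPM (343 to 562), Runx3 119 (70.5 to 188), Tox 119 (70.5 to 188) and Satb1 106 (60.4 to 172).

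Cells outside the T lineage gave the background. In cells with Chga or Chgb and no Cd3 UMI, Tcf7 was at 0.467 to 21.3 CPM, Bcl11b at 0.370 to 12.0, Lef1 at 0.311 to 4.47 and Gata3 at 0.0195 to 1.45 over 4 libraries, far under the T-lineage levels. Tox and Zbtb7b were not so low there: Tox reached 137 CPM (135 to 140) and Zbtb7b 46.5 (45.0 to 48.1) in the combination library, the latter at the level of that library's T-lineage cells. Runx3 stood at 50.1 CPM (46.6 to 53.8) in the tumor cells of anti-PD-1, above its 21.1 CPM in the T-lineage cells there, and at 11.3 to 18.6 in those of the other 3 libraries. The tumor genes Calca and Syp, which the class rule did not use, stood in T-lineage cells at 26.1% of their tumor-cell level in combination, 15.1% in ERBB2i and 7.19% in anti-PD-1. Scaled by those shares, the tumor-cell levels would bring 35.9 CPM of Tox and 12.2 of Zbtb7b to the T-lineage cells of combination, and 3.60 of Runx3 to those of anti-PD-1. The measured levels were 206, 46.7 and 21.1 CPM. RNA from other classes was not scaled in this way, so these values do not give the whole background. In combination, cells with the myeloid gene Lyz2 and no Cd3 UMI held Tox at 135 CPM and Zbtb7b at 50.9. Cells with a B-cell gene and no Cd3 UMI held 94.4 and 64.6 there. In combination in response, 37 cells with a B-cell gene and no Cd3 UMI carried Trbc2 at 759 CPM (570 to 990) and Bcl11b at 590 (425 to 797), so T-cell RNA was present in that class too. Satb1 was at 829 (631 to 1069) there. In the B-cell class of ERBB2i, however, Satb1 stood at 376 CPM (302 to 462) with Trbc2 at 25.1. Runx1 was at 109 CPM (71.0 to 159) in B cells of ERBB2i and 124 (80.4 to 183) in those of combination. Their T-lineage cells had 96.9 and 57.7, and the intervals of the classes overlapped in both libraries. Runx3 was at 150 CPM in cells of ERBB2i with the myeloid gene Lyz2 and no Cd3 UMI.

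The split by Rag2 or Dntt asked how the factors differ between cells with and without the rearrangement genes. In both libraries that hold such cells, Zbtb7b, Tox, Runx3 and Lef1 were at least 2-fold lower in the cells with Rag2 or Dntt, and none of the 9 was 2-fold higher. These were 4 of 9 factors in anti-PD-1, where 20.9% of 9801 genes passed 2-fold in either direction, and 4 of 9 in combination in response, where 12.6% of 10129 did. The median over the 9 factors was -0.37 in anti-PD-1 and -0.84 in combination in response, beside -0.10 and 0.03 over all genes.

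Zbtb7b, which drives the CD4 fate, had the lowest ratio of the 9. In anti-PD-1 it stood at 2.92 CPM (1.91 to 4.27) in cells with Rag2 or Dntt and at 122 (107 to 138) in the rest, a log2 ratio of -5.38 (-6.03 to -4.80). In combination in response the levels were 6.33 CPM (4.83 to 8.15) and 89.3 (78.8 to 101), a log2 ratio of -3.82 (-4.25 to -3.41). The classes were far apart in both libraries, on 26 against 252 UMIs and 60 against 260.

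Tox was lower in the same class. Its level was 64.6 CPM (59.4 to 70.1) with and 290 (267 to 314) without Rag2 or Dntt in anti-PD-1, a log2 ratio of -2.17 (-2.33 to -2.0), and 298 (287 to 309) and 1026 (989 to 1063) in combination in response, a log2 ratio of -1.78 (-1.86 to -1.71). Runx3 was at 16.8 and 39.6 CPM in anti-PD-1 (log2 ratio -1.24, -1.63 to -0.83) and at 22.2 and 65.6 in combination in response (-1.57, -1.85 to -1.27). Lef1 gave -1.26 (-1.36 to -1.15) and -1.26 (-1.32 to -1.20), with 233 against 557 CPM and 507 against 1215 CPM.

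Tcf7, Bcl11b and Runx1 were higher in cells with Rag2 or Dntt, by less than 2-fold. Tcf7 was at 1623 and 1005 CPM in anti-PD-1, a log2 ratio of 0.69 (0.62 to 0.76), and at 2319 and 1707 in combination in response, 0.44 (0.40 to 0.49). Bcl11b gave 0.18 (0.08 to 0.29) and 0.29 (0.23 to 0.36), and Runx1 0.32 (0.05 to 0.59) and 0.15 (0.03 to 0.28). Gata3, which serves both early commitment and the CD4 fate, gave -0.37 (-0.65 to -0.09) and -0.84 (-1.02 to -0.66). Satb1 was nearly even, with -0.08 (-0.15 to -0.01) and -0.20 (-0.23 to -0.16). Depth moved with this split in anti-PD-1, at a median of 2321 against 1090 UMIs per cell, but hardly in combination in response, at 1292 against 1232. With every cell thinned to 500 UMIs before classes were set, Zbtb7b, Tox and Lef1 stayed 2-fold lower in anti-PD-1, at -5.04, -1.52 and -1.21, while Runx3 gave -0.51. In cells with at least 1000 UMIs the 4 factors gave -5.51, -1.95, -1.07 and -1.31. Satb1 changed sign in anti-PD-1, to 0.30 thinned and 0.21 in the deeper cells. In combination in response thinned cells gave -3.10 for Zbtb7b, -1.28 for Tox, -1.58 for Runx3 and -0.81 for Lef1.

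**Figure D2:**
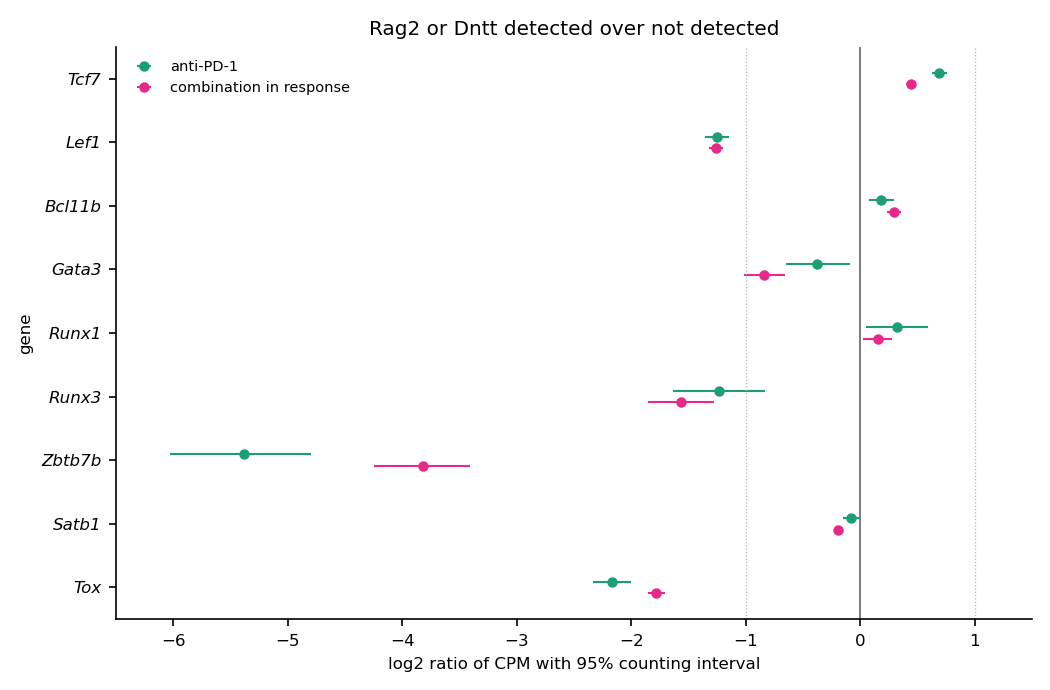
Log2 ratio of CPM, cells with a Rag2 or Dntt UMI over cells without, for each factor in anti-PD-1 and combination in response, with exact conditional 95% intervals. Dotted lines mark 2-fold. Zbtb7b, Tox, Runx3 and Lef1 lie to the left of the lower line in both libraries.

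Genes of the wider pathway were counted along the same split. Of 10 partner factors measured, which act beside the 9 in T-cell development, 1 was 2-fold higher in anti-PD-1 and 2 in combination in response, none lower, with medians of 0.34 and 0.01. Of 5 Notch and pre-TCR genes that reached 50 UMIs, 2 were 2-fold higher and 1 lower in the Rag2 or Dntt cells of anti-PD-1, and 3 higher and none lower in combination in response. Ptcra, the invariant chain of the pre-T-cell receptor, stood at 121 against 22.7 CPM in anti-PD-1 and at 123 against 23.0 in combination in response. Of 7 naive and egress genes, 6 were 2-fold lower in anti-PD-1 and 4 in combination in response, with none higher. Klf2, which controls exit from the thymus, gave log2 ratios of -4.47 (-4.73 to -4.23) and -2.71 (-2.82 to -2.60), and its target S1pr1 gave -5.65 (-6.60 to -4.84) and -3.12 (-3.47 to -2.77). Of the effector regulators, 4 of 4 measured in anti-PD-1 and 4 of 5 in combination in response were 2-fold lower, Id2 by -4.00 (-4.28 to -3.73) and -2.52 (-2.70 to -2.34). Of 5 exhaustion genes measured, 5 and 4 were 2-fold lower. Of the family relatives of the 9 factors, 3 of 5 measured in anti-PD-1 and 2 of 6 in combination in response were 2-fold lower. Of the early progenitor genes, 2 of 3 were lower in anti-PD-1, and 1 of 2 was higher and 1 lower in combination in response.

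**Figure D3:**
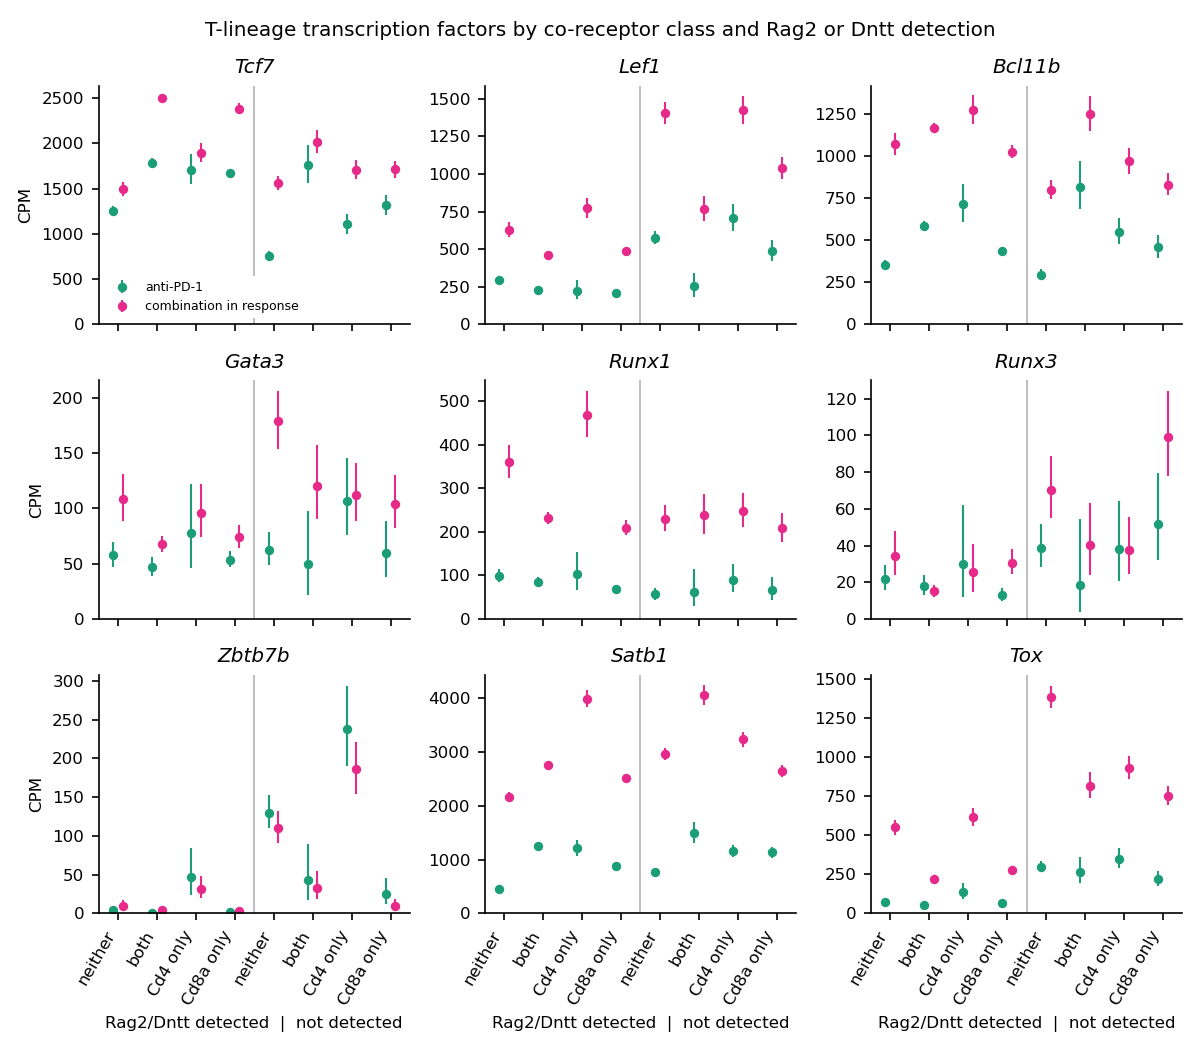
Level of each factor in CPM (linear axes from 0) in the 4 co-receptor classes, with Rag2 or Dntt UMIs to the left of the grey line and without to the right, in anti-PD-1 and combination in response. Bars are exact Poisson 95% intervals. Zbtb7b peaks in Cd4 only cells without Rag2 or Dntt, at 238 and 186 CPM, and Runx3 in Cd8a only cells of combination in response, at 98.9.

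Between cells with both co-receptors and cells with neither, 3 of 9 factors passed 2-fold in anti-PD-1, where 14.4% of 8695 genes did, and 5 of 9 in combination in response, where 12.4% of 9390 did. This split overlaps the one by Rag2 or Dntt. In anti-PD-1, Rag2 or Dntt was detected in 984 of 1105 cells with both and 452 of 1181 with neither. In combination in response the counts were 2725 of 3087 and 566 of 1276. Satb1 was the factor 2-fold higher in cells with both in anti-PD-1, at 1258 against 570 CPM and a log2 ratio of 1.14 (1.06 to 1.22). In combination in response it was at 2861 and 2568 CPM, a log2 ratio of 0.16 (0.11 to 0.20). Tcf7 was higher in both libraries, by 0.74 (0.68 to 0.81) and 0.69 (0.63 to 0.74), and so was Bcl11b, by 0.84 (0.73 to 0.95) and 0.33 (0.26 to 0.40). Zbtb7b was lower by -4.05 (-5.21 to -3.09) and -3.28 (-3.86 to -2.73), and Tox by -1.22 (-1.47 to -0.98) and -1.87 (-1.96 to -1.77). Lef1, Gata3 and Runx3 passed 2-fold lower in combination in response, at -1.08, -1.01 and -1.64, and gave -0.82, -0.34 and -0.65 in anti-PD-1. Among Rag2 or Dntt cells of combination in response, levels of these factors with both and with neither were closer. Lef1 was at 459 and 630 CPM, Gata3 at 67.3 and 108, and Runx3 at 15.0 and 34.4. Zbtb7b was at 3.89 and 9.12 and Tox at 219 and 549. Tcf7, at 2498 and 1491, and Satb1, at 2757 and 2155, were not closer. The class with neither co-receptor is mixed: gamma delta T-cell genes (Trdc, Trgc1 and Trgc2) summed to 968 CPM there against 442 in cells with both in anti-PD-1, and to 1511 against 258 in combination in response.

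Within cells that had Rag2 or Dntt, the level in each class shows where the factors stood at the stage with both co-receptors. Tcf7 had its highest level of the 4 classes there, with 1788 CPM (1738 to 1838) in 984 cells of anti-PD-1 and 2498 (2455 to 2542) in 2725 cells of combination in response. In anti-PD-1 the Cd4 only class, at 1710 (1546 to 1887), overlapped it. Zbtb7b had 2 UMIs in the former and 20 in the latter, or 0.732 CPM (0.0887 to 2.64) and 3.89 (2.38 to 6.01). In Cd4 only cells with Rag2 or Dntt it was higher, at 47.3 CPM (23.6 to 84.6) and 31.3 (19.4 to 47.9). These classes rest on detection, and Cd8b1, the gene of the other CD8 chain, was often present where Cd8a was not. In anti-PD-1 it was detected in 131 of 161 Cd4 only cells, at 2316 CPM beside 2243 in cells with both. Median depth of those Cd4 only cells was 923 UMIs. Cd8b1 was also detected in 252 of 452 cells with neither. The classes are therefore not clean stages. Tox stood at 55.3 CPM (46.8 to 64.8) and 219 (207 to 233) in cells with both, the lowest of the 4 classes in each library. In anti-PD-1 its interval overlapped that of Cd8a only cells, 64.1 (56.6 to 72.4), and that of cells with neither, which stood at 70.2.

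The split into Cd8a only and Cd4 only, in cells without Rag2 or Dntt, asked whether the factors of the CD4 and CD8 fates separate the classes. They did so by direction in every library, with Zbtb7b lower and Runx3 higher in Cd8a only cells, although several counts were small. Factors past 2-fold numbered 1 of 8 with at least 50 UMIs in anti-PD-1 beside 5.79% of 2954 genes, 2 of 9 in combination in response beside 3.13% of 5427, 1 of 7 in ERBB2i beside 4.53% of 2143, and 1 of 1 in combination beside 6.86% of 379.

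Zbtb7b stood in Cd8a only and Cd4 only cells at 24.8 CPM (11.9 to 45.5) and 238 (190 to 293) in anti-PD-1, a log2 ratio of -3.26 (-4.37 to -2.31). In combination in response the levels were 9.23 CPM (3.71 to 19.0) and 186 (155 to 222), a ratio of -4.33 (-5.68 to -3.25). In ERBB2i it had 2 UMIs against 11, a ratio of -3.36 (-6.58 to -1.17), and in combination 2 against 3, a ratio of -2.50 (-6.08 to 0.63). The interval stayed under 0 in 3 of 4 libraries, and the last pair of counts could not separate the classes.

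Runx3 gave a log2 ratio of 1.40 (0.73 to 2.12) in combination in response, with 98.9 against 37.5 CPM, and of 0.99 (0.32 to 1.70) in ERBB2i, with 268 against 135 CPM. In anti-PD-1 the ratio was 0.44 (-0.60 to 1.53) on 21 and 14 UMIs, and in combination 0.67 (-1.11 to 3.08) on 18 and 3 UMIs, so neither interval left 0. Both Zbtb7b and Runx3 were detected in 15 of 1983 cells in combination in response and 10 of 1409 in anti-PD-1. The counts were 9 of 1221 in ERBB2i and 1 of 283 in combination. Zbtb7b was detected in 157, 167, 51 and 15 cells of these libraries in that order, and Runx3 in 129, 68, 230 and 43. With each gene detected in a small share of cells, these counts cannot show whether the factors exclude each other.

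**Figure D4:**
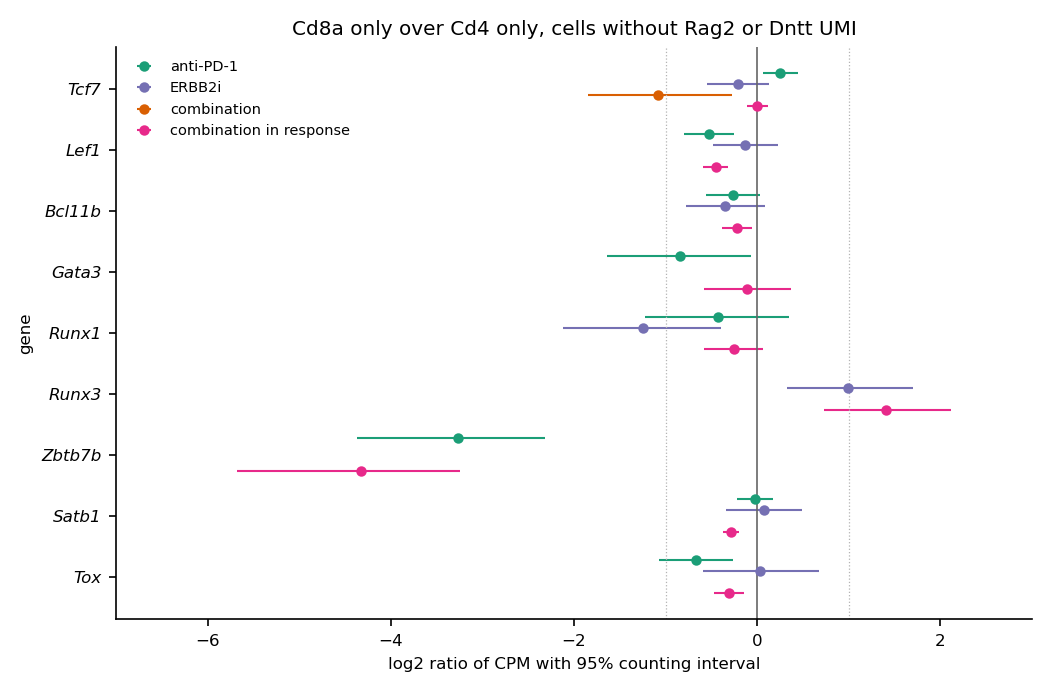
Log2 ratio of CPM, Cd8a only over Cd4 only, in cells without a Rag2 or Dntt UMI, for factors with at least 50 UMIs over both classes in each of 4 libraries, with exact conditional 95% intervals. Zbtb7b lies at -3.26 and -4.33 in the libraries where it reached that count, while most others lie within 2-fold.

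The other factors differed less between the co-receptor classes. Lef1 was lower in Cd8a only cells by -0.53 (-0.80 to -0.26) in anti-PD-1 and -0.45 (-0.59 to -0.32) in combination in response, and gave -0.13 (-0.48 to 0.22) in ERBB2i. Tox gave -0.67 (-1.07 to -0.26), -0.31 (-0.47 to -0.14) and 0.03 (-0.59 to 0.68) in the same order. Gata3 gave -0.84 (-1.64 to -0.07) in anti-PD-1 and -0.11 (-0.58 to 0.37) in combination in response. Runx1 passed 2-fold in ERBB2i at -1.25 (-2.13 to -0.39), with 66.3 against 158 CPM. Tcf7 was the factor past 2-fold in combination, at -1.08 (-1.85 to -0.28) with 41 and 23 UMIs, while in anti-PD-1 it gave 0.25 (0.06 to 0.44). Beside these, Il7r was 2-fold lower in Cd8a only cells of some libraries, with -1.35 in combination in response and -1.45 in anti-PD-1. Pdcd1 gave -1.66 in ERBB2i and -1.79 in anti-PD-1. Of the naive and egress genes measured, 1 of 7 in combination in response, 2 of 6 in anti-PD-1 and 0 of 7 in ERBB2i were 2-fold lower. Of the exhaustion genes measured, 0 of 4, 1 of 2 and 1 of 3 were so in the same order.

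ERBB2i and combination held few cells with Rag2 or Dntt, and were compared in cells without those genes. The libraries differ by the addition of anti-PD-1 and by animal and preparation, which cannot be told apart. None of the 9 factors passed 2-fold, where 8.64% of 6652 genes did, and intervals lay under 0 for 4 factors. Lef1 was at 319 CPM (263 to 383) in 283 cells of combination and 509 (473 to 546) in 1221 of ERBB2i, a log2 ratio of -0.67 (-0.97 to -0.39). Tcf7 gave -0.45 (-0.71 to -0.20), Satb1 -0.46 (-0.78 to -0.15) and Runx1 -0.73 (-1.46 to -0.06). Runx3 gave -0.37 (-0.81 to 0.04), Bcl11b -0.24 (-0.54 to 0.06), Gata3 0.01 (-0.66 to 0.64), Zbtb7b 0.27 (-0.60 to 1.07) and Tox -0.02 (-0.41 to 0.36), intervals that all included 0. Myeloid markers summed to 1257 CPM in combination and 361 in ERBB2i, and over all T-lineage cells Calca and Syp summed to 355 and 70.4. Without cells that held a Cd79a, Cd79b or Lyz2 UMI, Lef1 gave -0.76, Tcf7 -0.41, Satb1 -0.59 and Runx1 -1.18, which then passed 2-fold.

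Cells with Ccl5 or Nkg7, genes of cytotoxic cells, were set against the rest within each of these libraries. The class rule did not remove NK cells. In cells without Rag2 or Dntt, NK markers summed to 287 CPM in ERBB2i and 406 in combination. They summed to 46.9 in anti-PD-1 and 68.0 in combination in response. A trait of T cells and a share of NK cells therefore cannot be told apart in this split. In ERBB2i 1 of 9 factors passed 2-fold, beside 3.84% of 5783 genes, and in combination 1 of the 6 with enough UMIs, beside 6.7% of 1462. In ERBB2i Zbtb7b was at 20.9 CPM against 72.5, a log2 ratio of -1.80 (-2.65 to -0.98), Satb1 gave -0.78 (-1.02 to -0.54), Lef1 -0.58 (-0.79 to -0.37) and Tcf7 -0.38 (-0.58 to -0.18), while Runx3 gave 0.78 (0.40 to 1.18) and Tox 0.49 (0.13 to 0.87). Eomes, a regulator of cytotoxic cells, gave 4.24 (2.99 to 5.88) there. In combination Lef1 gave -1.07 (-1.64 to -0.51), Runx3 0.56 (-0.28 to 1.45) and Tcf7 -0.03 (-0.51 to 0.46).

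Combination in response was compared with anti-PD-1 within cells with Rag2 or Dntt, the class both held in number. The levels of all 9 factors were higher in combination in response, 6 of them by 2-fold or more, where 36.9% of 10482 genes passed 2-fold in either direction and the median gene stood at 0.42. Tox gave the largest ratio, 2.21 (2.08 to 2.34), with 298 against 64.6 CPM. Runx1 followed at 1.66 (1.54 to 1.79) with 255 against 80.6 CPM, Satb1 at 1.58 (1.54 to 1.62) with 2714 against 907, Bcl11b at 1.26 (1.20 to 1.31), Lef1 at 1.12 (1.05 to 1.20) and Zbtb7b at 1.12 (0.43 to 1.84). Tcf7 gave 0.51 (0.48 to 0.55), Gata3 0.51 (0.34 to 0.68) and Runx3 0.40 (0.09 to 0.71), close to the median gene. With the median gene set to 0, 3 of the 9 passed 2-fold.

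Several measures moved with this comparison. Malat1, a nuclear RNA, made up 2.24% of UMIs in combination in response and 0.339% in anti-PD-1, and ribosomal protein genes 5.78% and 9.83%. The cell cycle genes Mki67 or Top2a were detected in 20.9% (19.8 to 22.0) of the 5255 cells in combination in response and 65.9% (64.1 to 67.6) of the 2856 in anti-PD-1, and in 12.8% and 44.4% with every cell thinned to 500 UMIs. Within each library the cells with Mki67 or Top2a had less Tox (log2 ratio -0.99 in anti-PD-1 and -1.26 in combination in response), less Satb1 (-0.98 and -0.80) and less Bcl11b (-1.11 and -0.63). They were also deeper than cells without, at a median of 3361 against 878 UMIs in anti-PD-1. In combination in response the medians were 2964.5 and 1211. Leaving out cells with Mki67 or Top2a therefore also leaves out deeper cells. When only cells with both co-receptors, Rag2 or Dntt and no Mki67 or Top2a UMI were compared, 2123 against 322, Tcf7 gave 0.06 (-0.04 to 0.16), Bcl11b 0.38 (0.22 to 0.54), Satb1 0.74 (0.63 to 0.86) and Lef1 0.89 (0.59 to 1.21), each under 2-fold and beside a median gene at 0.27. Tox gave 1.74 (1.19 to 2.35) and Runx1 1.21 (0.74 to 1.72), past 2-fold. This choice of cells was made after seeing the data.

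**Figure D5:**
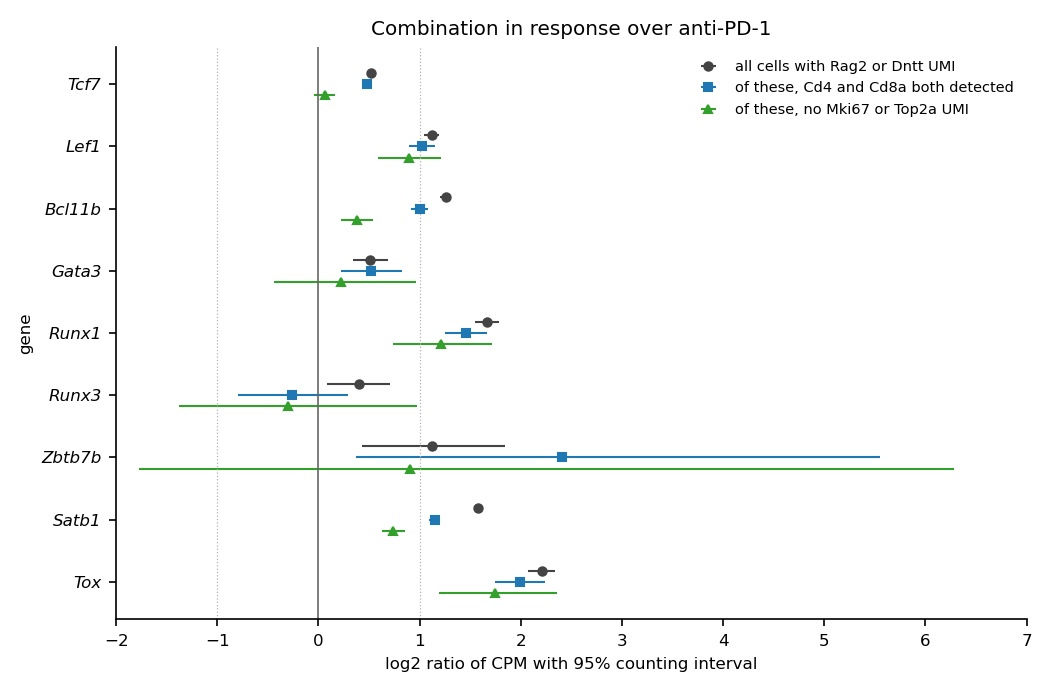
Log2 ratio of CPM, combination in response over anti-PD-1, in all cells with a Rag2 or Dntt UMI (circles), those with both co-receptors (squares) and those that in addition lacked Mki67 and Top2a (triangles), with exact conditional 95% intervals. Bcl11b moves from 1.26 to 0.38 and Tcf7 from 0.51 to 0.06, whereas Tox stays above 2-fold at 1.74.

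In cells without Rag2 or Dntt, Tox was higher in combination in response in all 4 co-receptor classes, by 1.41 to 2.21, Satb1 by 1.22 to 1.96 and Runx1 by 1.46 to 2.04. Zbtb7b was not higher in any of these classes, with ratios of -0.24 (-0.61 to 0.12) in cells with neither co-receptor, -0.38 (-1.76 to 1.16) with both, -0.35 (-0.76 to 0.06) in Cd4 only and -1.42 (-3.05 to 0.12) in Cd8a only cells, whose intervals all reached 0. Runx3 gave -0.03 (-1.03 to 1.03) in Cd4 only and 0.93 (0.21 to 1.70) in Cd8a only cells. With neither co-receptor it gave 0.87 (0.31 to 1.44), and with both 1.11 (-0.67 to 3.51). The median gene stood at 0.20 to 0.30 in these classes. In the Rag2 or Dntt cells, where 2962 of 10482 genes were 2-fold higher in combination in response, 7 of 10 partner factors, 6 of 7 naive and egress genes, 4 of 5 exhaustion genes, 3 of 4 effector regulators, 3 of 6 Notch and pre-TCR genes, 3 of 7 family relatives and 1 of 3 early progenitor genes were so too. The partner factors included Themis at 2.81 (2.74 to 2.87) and Tcf12 at 2.06 (1.98 to 2.15), and Ptcra gave 0.02 (-0.10 to 0.14).

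Detection of Pdcd1, the gene of the receptor PD-1, was used as a further split of the cells without Rag2 or Dntt, chosen after seeing the data. Satb1 was lower in Pdcd1-positive cells of all 4 libraries. ERBB2i gave -2.91 (-4.05 to -1.98), combination -1.84 (-3.75 to -0.44), anti-PD-1 -1.52 (-1.87 to -1.20) and combination in response -1.07 (-1.24 to -0.90). Tcf7 gave -1.02, -0.82, -0.81 and -0.66 in the same order, with the interval in combination (-1.81 to 0.03) reaching 0. Tox was higher in ERBB2i, 0.78 (0.32 to 1.22), and combination, 0.93 (0.03 to 1.76), and gave 0.31 (-0.06 to 0.66) and -0.10 (-0.32 to 0.11) in the other libraries. Lef1 was lower in ERBB2i, -1.65 (-2.25 to -1.11), combination, -2.47 (-4.77 to -0.88), and anti-PD-1, -0.36 (-0.67 to -0.06), and gave 0.17 (-0.02 to 0.35) in combination in response. Bcl11b was lower in anti-PD-1, -1.28 (-1.77 to -0.82), and combination in response, -1.81 (-2.22 to -1.42), and gave 0.01 (-0.40 to 0.40) in ERBB2i and 0.06 (-0.83 to 0.86) in combination. Between 25 and 124 cells per library had a Pdcd1 UMI. Those cells were deeper than the rest in anti-PD-1, at a median of 1568 against 1073.5 UMIs. In combination in response the medians were 2185 and 1214, in ERBB2i 1052 and 1099, and in combination 1113 and 1039. In Pdcd1-positive cells Satb1 had 9 UMIs in ERBB2i and 4 in combination, and Lef1 had 3 in combination. Ratios over all genes were not taken for this split.

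As a description of shared patterns, each factor was correlated with 9177 genes over 21 profiles, the classes of at least 50 cells in 4 libraries, which share libraries and depth and are not independent. The nearest genes to Zbtb7b were Tnfrsf4 (r = 0.93), Izumo1r (0.88) and Ckb (0.86), and those to Runx3 were H2-Q6 (0.95), Glipr2 (0.95) and Smad7 (0.95). Lef1 was nearest to Nr4a1 (0.92), Cd28 (0.91) and Parp3 (0.91), and Tox to Jarid2 (0.95), Elk3 (0.94) and Nr4a1 (0.92).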

How the data were processed

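The deposited matrices hold UMI counts per gene and cell barcode for each of the 5 libraries. The authors prepared them from Singleron libraries of dissociated tumor; the submitters' notes name Cell Ranger, Scanpy and mm10, whereas the methods name CeleScope. The counts were not normalized, and no column of other samples was left out (0). Barcodes with more than 150 genes were kept if mitochondrial UMIs were at most 8% and within 3 MADs, and total UMIs, genes and the share of the top 20 genes within 5 MADs. Doublets were marked with Scrublet (scanpy 1.11.5) in place of SOLO, by its automatic threshold in anti-PD-1 and a score of 0.25 elsewhere, where the automatic one marked under 0.5%. This left 7213 to 22143 cells per library, with a median of 1204 to 6189 UMIs. Counts were summed per class and divided by the class total (Python 3.11.15, numpy 2.4.6, scipy 1.17.1). A count of 0 allows up to 3 counts, and classes under 20 cells gave counts only. No p-value was computed, as each group is 1 library. The ratio interval was tested on simulated data. The factors, lists and splits were chosen with earlier results of these data known. Some items withheld for evaluation are not reported here.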

Additional observations from a re-analysis of the deposited data

Results flagged for a closer look

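A pair of factors gave log2 ratios of opposite sign in 2 libraries, each with an interval that excluded 0. The difference between the libraries was not tested. Tcf7, Cd8a only over Cd4 only, was 0.25 (0.06 to 0.44) in anti-PD-1, on 531 and 405 UMIs, and -1.08 (-1.85 to -0.28) in combination, on 41 and 23 UMIs. Tox, in cells with over cells without Ccl5 or Nkg7, was 0.49 (0.13 to 0.87) in ERBB2i, on 218 and 87 UMIs, and -0.80 (-1.51 to -0.09) in combination, on 33 and 39 UMIs. Tox was also present in the tumor cells of combination, at 137 CPM.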

How the results depend on the processing

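No paired analysis was possible because each group is 1 library and no test was made. No called ratio changed sign under any of the 9 alternatives run. Counts of factors past 2-fold that moved by over 1.5 times are given first, and the cause was not tested. With the mean over cells, the Cd8a only split in combination gave 0 (1 as reported) and the Ccl5 or Nkg7 split gave 2 in ERBB2i and 2 in combination (1 as reported for each). With the median gene set to 0, combination in response over anti-PD-1 gave 3 (6 as reported) and the Cd8a only split in ERBB2i 2 (1 as reported). With genes from 10 UMIs, the Cd8a only split gave 2 in ERBB2i and 2 in combination, and the Ccl5 or Nkg7 split 3 in combination. Without the mitochondrial and MAD filters, the Cd8a only split gave 0 in ERBB2i and 2 in anti-PD-1 (1 as reported), both over neither in combination in response 3 (5 as reported), and the Ccl5 or Nkg7 split in combination 2. With doublets kept, the Cd8a only split gave 2 in ERBB2i and 0 in combination. With at least 2 Cd3 UMIs, the Ccl5 or Nkg7 split in combination gave 2. In cells with at least 1000 UMIs, combination over ERBB2i gave 1 (0 as reported) and the Ccl5 or Nkg7 split 0 in ERBB2i and 0 in combination. Without cells with a Cd79a, Cd79b or Lyz2 UMI, these gave 1 for combination over ERBB2i and 0 for the Ccl5 or Nkg7 split in combination. Thinned to 500 UMIs, combination over ERBB2i gave 1, the Cd8a only split in combination in response 0 (2 as reported), both over neither in combination in response 2, and the Ccl5 or Nkg7 split in combination 0. Thinning left 72 of 94 ratios, 68 with the same sign, and 13 of 20 still past 2-fold. Smaller moves were these. Combination in response over anti-PD-1 gave 4 (6 as reported) with the mean over cells, without the filters and thinned. The Rag2 or Dntt split gave 3 (4 as reported) in both libraries thinned. Both over neither gave 4 (5 as reported) in combination in response with the mean over cells, and 2 (3 as reported) in anti-PD-1 thinned or from 1000 UMIs. The count of factors 2-fold apart between libraries (7 as reported) was 9 without the filters, where vehicle entered, and 8 with the mean over cells, from 1000 UMIs or thinned.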
